A study of Mus musculus with 225 samples.

Results

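SWI/SNF complexes were followed through 10 of their subunit genes, *Smarca4*, *Smarca2*, *Smarcb1*, *Smarcc1*, *Smarcc2*, *Smarcd1*, *Smarce1*, *Arid1a*, *Pbrm1* and *Brd7*, chosen by name from the 23165 genes counted in single cells of the mouse forelimb. All 10 were also present among the 10948 genes with normalized values. The cells came from E12.5 embryos of a mixed C57Bl6CBAF1 background that were Hoxd11::GFP heterozygous, and the tau-GFP knock-in inactivates the *Hoxd11* allele that carries it. Forelimbs were pooled and dissociated, the autopod (the future hand) and the zeugopod (the future forearm) were kept apart, and the 20% of cells with the strongest GFP were sorted, so that both groups hold cells with a strong *Hoxd11* reporter only. Of 225 deposited cells, 199 had normalized values: 59 autopod cells from run NXT0072 and 17 from run NXT0143, and 58 zeugopod cells from run NXT0142 and 65 from run NXT0143. No label ties a cell to an embryo. Each tissue was therefore treated as 1 pooled sample, cells were not used as replicates, and no p-value was computed.

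SWI/SNF (BAF) complexes use the energy of ATP to slide or evict nucleosomes, and so open promoters and enhancers to transcription factors. Each complex holds a single ATPase, either *Smarca4* (BRG1) or *Smarca2* (BRM), on a scaffold of shared core subunits. Alternative subunits then set its form: *Arid1a* belongs to canonical BAF, while *Pbrm1* and *Brd7* belong to PBAF. Loss of *Smarca4*, *Smarcb1* or *Arid1a* is lethal in the mouse embryo.

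*Smarcd1*, *Smarca2*, *Smarcb1* and *Smarce1* differed most between the tissues over all cells, and *Smarca4* differed with the cell cycle. The RefSeq table held no entry for *Smarce1*. Windows of 250 bases before the RefSeq start are shown for the other 4 of these subunits. They run from 5′ to 3′ on the strand of the gene, in GRCm38.p6, at chr15:99702037-99702286 (plus strand, *Smarcd1*), chr19:26604910-26605159 (plus strand, *Smarca2*), chr10:75921615-75921864 (minus strand, *Smarcb1*) and chr9:21615919-21616168 (plus strand, *Smarca4*). Capitals mark, on either strand, the GC box GGGCGG, the ETS core CCGGAAG and the E2F-type site GCGGGAA, none of which overlap here.
Smarcd1: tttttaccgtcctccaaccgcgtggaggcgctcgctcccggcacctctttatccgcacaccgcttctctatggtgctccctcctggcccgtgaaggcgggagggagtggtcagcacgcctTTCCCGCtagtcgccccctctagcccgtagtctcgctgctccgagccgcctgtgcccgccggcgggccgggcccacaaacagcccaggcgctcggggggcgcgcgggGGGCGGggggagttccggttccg
Smarca2: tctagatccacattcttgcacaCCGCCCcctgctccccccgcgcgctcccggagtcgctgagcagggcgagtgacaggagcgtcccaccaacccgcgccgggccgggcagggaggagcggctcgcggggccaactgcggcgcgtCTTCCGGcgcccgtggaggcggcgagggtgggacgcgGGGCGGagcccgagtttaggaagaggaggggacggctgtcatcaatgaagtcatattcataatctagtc
Smarcb1: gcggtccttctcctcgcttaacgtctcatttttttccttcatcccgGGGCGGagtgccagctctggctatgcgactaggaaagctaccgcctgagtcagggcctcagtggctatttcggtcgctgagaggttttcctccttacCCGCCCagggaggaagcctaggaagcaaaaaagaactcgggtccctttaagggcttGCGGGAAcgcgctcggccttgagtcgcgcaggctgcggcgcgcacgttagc
Smarca4: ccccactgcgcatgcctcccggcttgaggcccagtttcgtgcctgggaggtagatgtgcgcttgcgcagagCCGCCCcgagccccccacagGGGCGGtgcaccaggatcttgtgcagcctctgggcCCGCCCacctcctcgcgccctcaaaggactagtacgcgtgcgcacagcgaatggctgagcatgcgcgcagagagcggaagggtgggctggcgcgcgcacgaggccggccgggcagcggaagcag

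The *Smarca4* window held 3 GC boxes and neither of the other marked motifs, and that of *Smarca2* held 2 GC boxes and 1 ETS core. The E2F-type letters occurred once in *Smarcd1* and once in *Smarcb1*. Among 32851 RefSeq promoter windows of the same length, 32.7% held a GC box, 6.91% an ETS core and 3.82% the E2F-type letters. The CCAAT box CCAAT (33.8% of windows), the CRE TGACGTCA (1.55%), the TATA box TATAAA (12.4%) and the CHR TTTGAA (15.99%) were not found in the windows of the 9 members that the RefSeq table held. The E-box CACGTG (6.02%) occurred once among them, in *Pbrm1*. The windows of these 9 members were rich in CpG: *Smarca4* had 25 CpG, *Smarca2* 28, *Smarcb1* 21 and *Smarcd1* 29, against a median of 6 over all windows. These matches describe letters and say nothing about occupancy.

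In GENCODE on GRCm38, *Smarca4* lies at chr9:21616169-21704230, *Smarca2* at chr19:26605050-26778322, *Smarcc1* at chr9:110117708-110240178, *Smarcc2* at chr10:128459248-128490482, *Smarcd1* at chr15:99702129-99713991 and *Pbrm1* at chr14:31019138-31121592, all on the plus strand. *Smarcb1* (chr10:75896769-75921617), *Smarce1* (chr11:99209047-99231017), *Arid1a* (chr4:133679008-133756769) and *Brd7* (chr8:88331039-88362194) lie on the minus strand. The libraries do not keep strand, so reads from exons that overlap another gene cannot be assigned. Such overlap covered 7.13% of the exon bases of *Smarcd1* (with *Gm17349*) plus 5.56% (with *Gm34939*), both on the opposite strand, and at most 1.57% for any of the other members. Sharing of 75-base stretches, the read length, was largest for *Smarce1*, with 13.5% of its stretches also found in another gene, of which *Gm8494* and *Smarce1-ps1* shared the most (8.04% and 6.69%). Between *Smarca4* and *Smarca2*, and between *Smarcc1* and *Smarcc2*, no stretch of that length was shared.

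Reads on genes, rounded to 6 digits, ranged from 187344 to 9437450 per autopod cell (median 2830020) and from 186271 to 6801280 per zeugopod cell (median 3233740). The median number of genes with at least 1 read was 3528 and 3965 in the autopod (NXT0072, NXT0143) and 4284 and 3745 in the zeugopod (NXT0142, NXT0143). The tissue labels held: *Hoxd13*, which marks the autopod, had 5 or more reads in 65 of 76 autopod cells and 1 zeugopod cell, and *Shox2*, which marks the zeugopod, in 0 of 76 (which, at 3 counts, allows up to 3.95%) and 73 cells. Of markers of other cell types, at least 3 of the muscle, epithelial or endothelial lists, or 2 of the macrophage list, were met in 0 retained cells. Single ones were seen, mostly in the zeugopod: *Pax7* in 1 autopod and 15 zeugopod cells, *Csf1r* in 3 and 17 and *Epcam* in 2 and 9. The blood list had 1 counted gene, *Hba-x*, found in 1 autopod cell.

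A subunit was called detected in a cell at 5 or more reads, and shares carry exact (Clopper-Pearson) 95% binomial intervals that cover counting error only, since reads without molecular identifiers are not independent molecules. Levels are given as normalized signal, the deposited value, which the authors scaled by spike-ins and divided by gene length in kb. Cells without a read of a gene all carry the same lowest value, the inverse of the gene's length, called its floor, which was 0.0870 for *Arid1a* and 0.334 for *Smarcd1*. Averages and differences are on the log2(signal + 1) scale.

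Of the ATPases, *Smarca4* was detected in 59.2% of autopod cells (45 of 76, interval 47.3% to 70.4%) and 62.6% of zeugopod cells (77 cells, 53.4% to 71.2%). Its signal ran from the floor of 0.156 to 4522 in the autopod, with a median of 5.69. In the zeugopod it reached 2326, with a median of 12.6. *Smarca2* was detected in 44.7% of autopod cells (34, 33.3% to 56.6%) and 65.9% of zeugopod cells (81, 56.8% to 74.2%). Its median signal was at the floor (0.127) among autopod cells and 23.8 among zeugopod cells, with highest cells at 2393 and 1875. Both ATPases ran from the floor upward in each tissue, so that the ranges of the tissues overlapped.

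The core subunits fell into a common and a rarer group. *Smarcc1* (BAF155), a scaffold subunit, was detected in 75.0% of autopod (57, 63.7% to 84.2%) and 79.7% of zeugopod cells (98, 71.5% to 86.4%), whereas its paralog *Smarcc2* (BAF170) was found in 36.8% (28, 26.1% to 48.7%) and 42.3% (52, 33.4% to 51.5%). *Smarcb1* (SNF5), a subunit that contacts the nucleosome, was detected in 40.8% of autopod (31, 29.7% to 52.7%) and 65.9% of zeugopod cells (81, 56.8% to 74.2%). *Smarce1* (BAF57), an HMG-domain subunit, was the most widely detected member in the zeugopod, in 96.7% of cells (91.9% to 99.1%), against 75.0% in the autopod (57, 63.7% to 84.2%). *Smarcd1* (BAF60a), which links the complexes to transcription factors, showed the opposite order, with 48.7% of autopod (37, 37.04% to 60.4%) and 21.95% of zeugopod cells (27, 14.99% to 30.3%).

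Of the subunits that set the form of the complex, the PBAF subunit *Pbrm1* (BAF180, polybromo) was detected in 89.5% of autopod (68, 80.3% to 95.3%) and 83.7% of zeugopod cells (76.01% to 89.8%). The other PBAF member, *Brd7*, a bromodomain protein, was found in 42.1% (32, 30.9% to 53.98%) and 39.8% (49, 31.1% to 49.1%). *Arid1a* (BAF250a), the DNA-binding subunit of canonical BAF, was found in 47.4% (36, 35.8% to 59.2%) and 51.2% (63, 42.1% to 60.3%). For *Arid1a* and *Brd7* the intervals of the tissues overlapped widely. The plot of shares by tissue and run sets the 4 groups of cells side by side.

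**Figure D1:**
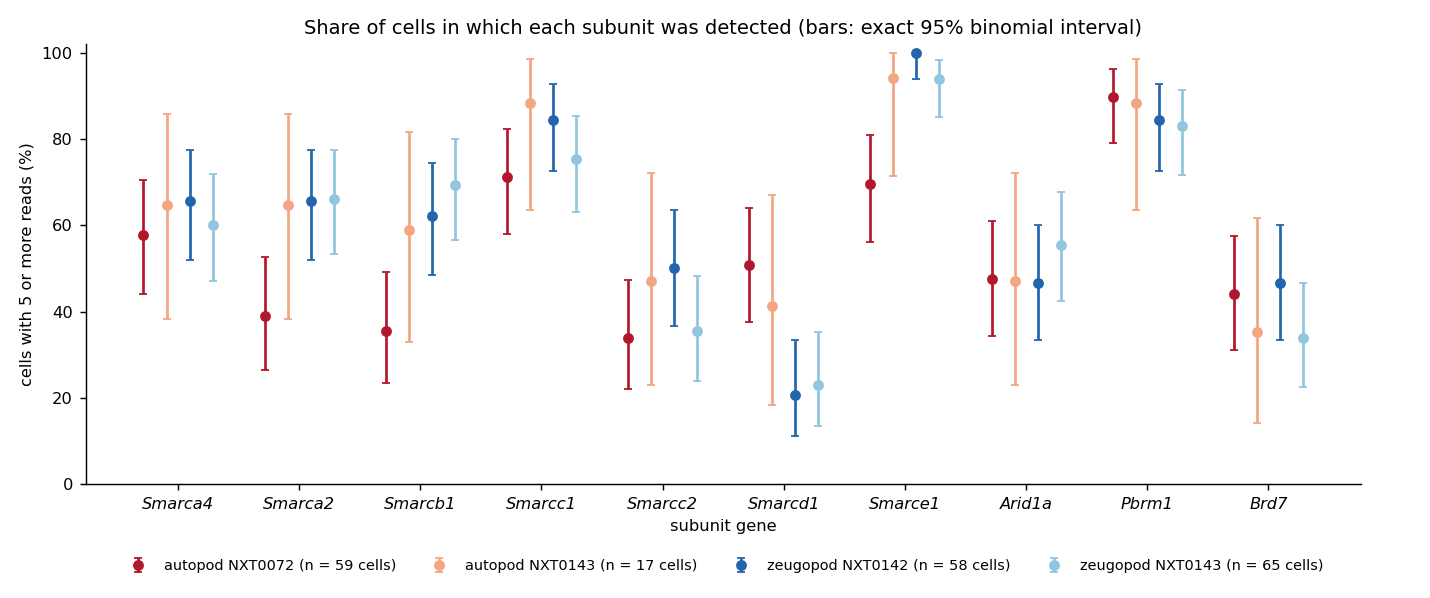
Percentage of cells with 5 or more reads of each subunit (vertical axis) in autopod cells of NXT0072 (n = 59) and NXT0143 (n = 17) and zeugopod cells of NXT0142 (n = 58) and NXT0143 (n = 65). Points are shares and bars exact 95% binomial intervals; *Smarcd1* lies lower in both zeugopod runs (20.7% and 23.1%) than in both autopod runs (50.8% and 41.2%), while *Smarca2*, *Smarcb1* and *Smarce1* are lowest in the NXT0072 autopod cells.

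By mean level per length, the order in the autopod was *Pbrm1* (6.05), *Smarce1* (4.83), *Smarcc1* (4.07), *Smarca4* (3.83), *Smarcd1* (3.11), *Brd7* (2.77), *Smarcb1* (2.55), *Smarca2* (2.49), *Smarcc2* (2.20) and *Arid1a* (1.86). In the zeugopod it was *Smarce1* (6.995), *Pbrm1* (5.24), *Smarcb1* (4.35), *Smarcc1* (4.13), *Smarca2* (4.04), *Smarca4* (4.03), *Smarcc2* (2.31), *Brd7* (2.12), *Arid1a* (1.77) and *Smarcd1* (1.30). Each pair of neighbours differed by less than the SD over cells of either gene, which ran from 1.90 (*Smarcd1*, zeugopod) to 3.76 (*Smarca4*, autopod). Single cells carried much of the total: the highest autopod cell held 47.6% of the summed *Brd7* signal and 44.4% of the summed *Arid1a* signal, and the highest zeugopod cell 3.60% of that of *Smarce1*.

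**Figure D2:**
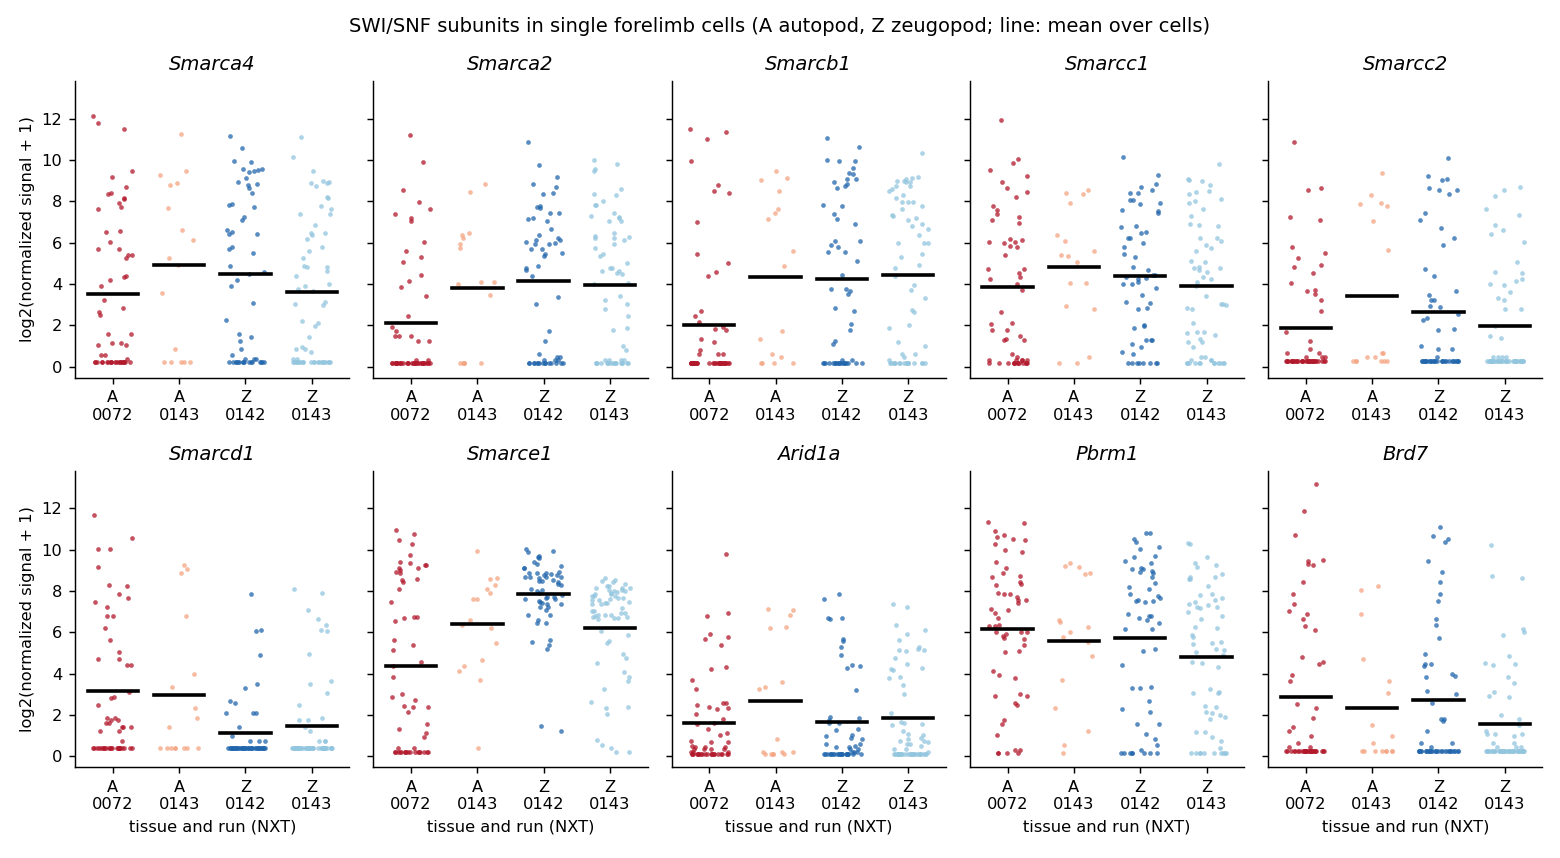
log2(normalized signal + 1) of the 10 subunits (vertical axes) in each of 199 cells, by tissue and run (A autopod, Z zeugopod; horizontal axes). Points are cells and lines means; most subunits form a band at the floor and a spread of expressing cells, whereas *Smarce1* in the zeugopod has few cells at the floor.

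The first comparison asked how the subunits differ between autopod and zeugopod. *Smarcd1* was higher in the autopod, and *Smarce1*, *Smarcb1* and *Smarca2* were lower. A difference of at least 1 in mean log2(signal + 1) was met upward by 1 of 10 members, against 6.06% of the 4898 genes that passed a filter on low values (detected in 25% or more of a tissue's cells), and downward by 3, against 13.4%. The median difference was -0.08 over the members and -0.12 over all genes tested.

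*Smarcd1* differed by 1.80, above 99.1% of the genes tested. Its median signal was 1.84 in the autopod and at the floor of 0.334 in the zeugopod, with highest cells at 3337 and 271. The difference had the same direction in both comparisons that the runs allow. It was 1.50 within NXT0143, which contained cells of each tissue (means 2.96 and 1.46, 17 and 65 cells), and 2.02 between the NXT0072 autopod and NXT0142 zeugopod cells (3.15 and 1.13). This pattern of a rise over all cells with the same sign in both comparisons was met by 5.25% of genes. The autopod cells of the 2 runs were close, at 3.15 and 2.96. After thinning to 500000 reads, *Smarcd1* remained detected in 34.7% of 72 autopod cells and 11.8% of the zeugopod cells. The study's own list of top autopod genes, made from the same cells, holds an entry spelled *Smardc1*, taken here as *Smarcd1*. The tissue difference of *Smarcd1* is thus not independent evidence.

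*Smarce1* (-2.16), *Smarcb1* (-1.80) and *Smarca2* (-1.55) were lower in the autopod over all cells and between the runs that each held a single tissue, but not by that size within NXT0143. Between NXT0072 and NXT0142 they were -3.47, -2.19 and -2.03. Within NXT0143 they were 0.15, -0.13 and -0.14, each smaller in size than the median of 0.18 over all genes tested there. *Smarcb1* and *Smarca2* thus were lower in both comparisons, a pattern met by 9% of genes, and *Smarce1* did not. Between NXT0072 and NXT0142, tissue and run cannot be told apart.

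*Smarca4* and *Smarcc2* changed sign between those comparisons: *Smarca4* was higher in the autopod by 1.31 within NXT0143 and gave -0.98 between the other runs, and *Smarcc2* gave 1.42 and -0.81. Within NXT0143 these and *Smarcd1* were the 3 members higher by at least 1 (18.4% of genes) and 0 members were lower by that much (9.21%). Between NXT0072 and NXT0142, *Smarcd1* was the 1 member higher (6.64%), and *Smarca2*, *Smarcb1* and *Smarce1* were the 3 lower (24.3%). *Pbrm1* (0.80, 0.78 and 0.44 over all cells, within NXT0143 and between the other runs) and *Brd7* (0.65, 0.75 and 0.17) were higher in the autopod each time, below the size of 1. *Smarcc1* (-0.06, 0.93 and -0.55) and *Arid1a* (0.09, 0.82 and -0.02) did not keep a sign.

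**Figure D3:**
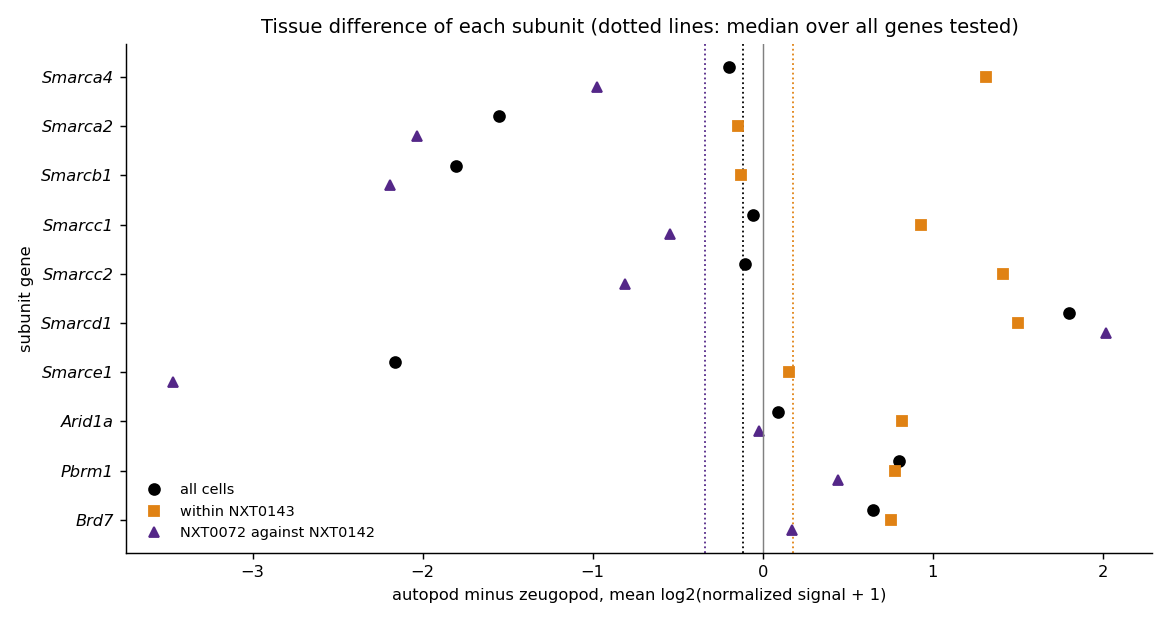
Autopod minus zeugopod difference in mean log2(normalized signal + 1) (horizontal axis) of each subunit, over all cells (circles), within NXT0143 (squares) and between NXT0072 autopod and NXT0142 zeugopod cells (triangles). Dotted lines are medians over 4898 genes (-0.12, 0.18 and -0.34); *Smarcd1* lies at 1.50 to 2.02 in all 3, and the squares of *Smarce1*, *Smarcb1* and *Smarca2* lie near 0.

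Differences between runs of the same tissue were as large as those between tissues. In the autopod, 6 members were higher by at least 1 in NXT0143 than in NXT0072, against 22.2% of genes: *Smarcb1* (2.30), *Smarce1* (2.01), *Smarca2* (1.71), *Smarcc2* (1.54), *Smarca4* (1.42) and *Arid1a* (1.08). In the zeugopod, *Smarce1* (-1.62) and *Brd7* (-1.14) were lower by at least 1 in NXT0143 than in NXT0142, against 15.1% of genes. *Smarce1* was detected in all 58 NXT0142 zeugopod cells (interval 93.8% to 100%), with signal from 1.35 to 1065 and a median of 291. In the NXT0072 autopod cells it was detected in 69.5% (56.1% to 80.8%), with a median of 7.21. Genes detected per cell moved with these differences, being lowest in NXT0072 and highest in NXT0142, and their part in them was not tested. The autopod runs also differed in markers: *Hoxd13* was found in 91.5% of NXT0072 and 64.7% of NXT0143 cells, *Prrx1* in 67.8% and 41.2%, *Twist1* in 64.4% and 29.4% and *Top2a* in 67.8% and 29.4%, whose part was not tested either.

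Cells carried a mixture of subunits. The number of members detected per cell had a median of 6 in each tissue, with a range of 1 to 10 in the autopod and 2 to 10 in the zeugopod. All 10 were found in 1 autopod and 1 zeugopod cell. At most 3 were found in 15 autopod and 6 zeugopod cells, and 7 or more in 39.5% and 42.3%. The number rose with genes detected: autopod cells with fewer than 3000 genes had a median of 3 members, those with 5000 or more a median of 7.5, and the zeugopod values were 4 and 8. The rank correlation with genes detected was 0.70 over 76 autopod cells and 0.54 over the zeugopod cells, and 0.74 and 0.53 when both were counted after thinning. In the autopod cells of NXT0143 it was 0.44, and 0.17 after thinning (16 cells). Cells of a tissue share runs and differ in depth, and the coefficients are descriptions.

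**Figure D4:**
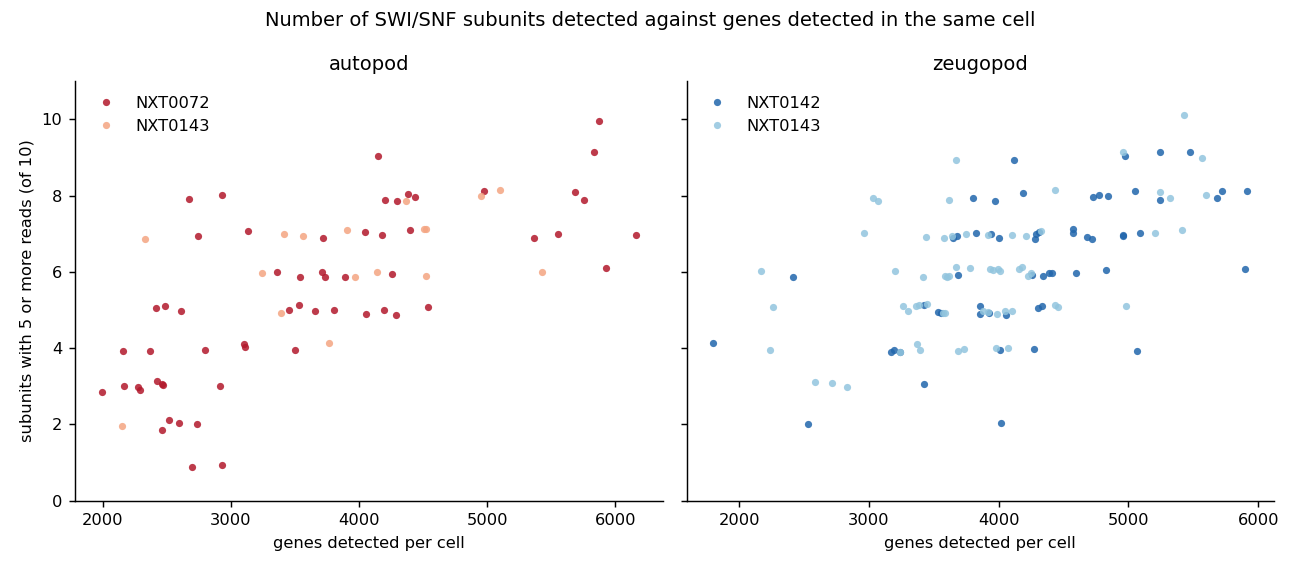
Number of the 10 subunits with 5 or more reads (vertical axis; points are spread vertically by up to 0.15 for visibility) against genes detected in the same cell (horizontal axis), by tissue and run. Each point is a cell; cells with fewer than 3000 genes held a median of 3 (autopod) and 4 (zeugopod) subunits and cells with 5000 or more a median of 7.5 and 8.

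Members differed in how far they followed genes detected. In the autopod the rank correlations were highest for *Smarcc1* (0.65), *Smarce1* (0.65) and *Smarca4* (0.61), each above that of 95.7% or more of the genes tested, and lowest for *Smarcc2* (0.21) and *Smarcd1* (0.24). Within NXT0072 *Smarcc1* (0.70) and *Smarce1* (0.65) were highest and *Smarcd1* (0.18) and *Smarcc2* (0.25) lowest. In the 17 autopod cells of NXT0143, *Smarca4* (0.67) and *Smarcd1* (0.60) were highest, and *Smarcc1* (0.25) and *Smarce1* (0.13) lay lower. In the zeugopod they were highest for *Smarcb1* (0.48) and *Smarce1* (0.43) and lowest for *Smarcd1* (0.09). At equal depth, after thinning, *Smarce1* fell to -0.03 there, while *Smarcb1* stood at 0.37, and in the autopod *Smarca4* (0.55) was followed by *Smarce1* (0.45) and *Smarcc1* (0.45). Medians were 0.46 (autopod) and 0.28 (zeugopod) over the members, against 0.35 and 0.25 over all genes tested. Detection of *Smarcc1* rose from 11 of 25 autopod cells with fewer than 3000 genes to 10 of 10 with 5000 or more, and that of *Smarca4* from 8 of 25 to 10 of 10. *Smarcd1* instead was found in 14 of 25, 8 of 21, 8 of 20 and 7 of 10 autopod cells from the lowest to the highest class of genes detected. In the zeugopod it was found in 0 of 10, 12 of 52, 11 of 44 and 4 of 17 cells, below the autopod share in every class.

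Over all autopod cells, members rose and fell together, but little once genes detected was taken into account. For the 45 autopod pairs the median rank correlation was 0.20, against 0.14 over all pairs of genes. Of these, 23 pairs reached 0.2, against 31.6% of all pairs. Given genes detected, the median was 0.02, as over all pairs of genes (0.02), and 4 pairs (8.89%) reached 0.2, against 6.86%. Without that adjustment, the autopod median by run was 0.26 in NXT0072 (0.15 over all pairs) and 0.05 in NXT0143 (0.09). In the zeugopod the median was 0.10, against 0.07 over all pairs, and 4 pairs reached 0.2, against 10.6%. Given genes detected these became 0.04 and 1 pair (2.22%), against 0.01 and 2.35% over all pairs. The closest autopod pairs were *Smarcc1* and *Smarce1* (0.56, and 0.24 given genes detected) and *Smarca2* and *Smarce1* (0.50, and 0.33). The latter stood at -0.02 in the zeugopod. *Smarcb1* and *Smarce1* were the closest zeugopod pair (0.34, and 0.16 given genes detected), with 0.50 and 0.32 in the autopod. By zeugopod run, this pair stood at 0.56 in NXT0142 and 0.16 in NXT0143 (0.48 and -0.05 given genes detected). With CPM it stood at 0.07 over all zeugopod cells. In the autopod runs NXT0072 and NXT0143, *Smarcc1* and *Smarce1* gave 0.59 and 0.21, and *Smarca2* and *Smarce1* gave 0.46 and 0.63.

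Paralogs were found together in many cells. *Smarca4* and *Smarca2* were both detected in 23 of 76 autopod cells (30.3%, interval 20.3% to 41.9%), *Smarca4* alone in 22, *Smarca2* alone in 11 and neither in 20. In the zeugopod the counts were 50 (40.7%, 31.9% to 49.9%), 27, 31 and 15. The product of the ATPases' separate shares was 26.5% in the autopod and 41.2% in the zeugopod, inside both intervals. Where both were present, the level of *Smarca4* was higher in 15 of 23 autopod and 31 of 50 zeugopod cells, with a median log2 ratio of 2.55 and 1.58. This ratio varied by run, from 1.06 (NXT0072) to 3.27 (NXT0143) in the autopod and from 1.87 (NXT0142) to 0.78 (NXT0143) in the zeugopod, and after thinning was 1.56 and 1.12. Cells with neither ATPase had a median of 2646 genes detected in the autopod and 3555 in the zeugopod, below the 4365 and 4296 of cells with both.

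*Smarcc2* was rarely found without *Smarcc1*, in 5 autopod and 7 zeugopod cells, whereas *Smarcc1* occurred alone in 34 and 53. Both were detected in 23 and 45 cells (30.3% and 36.6%), against products of 27.6% and 33.7%. *Arid1a* was found without *Pbrm1* in 2 autopod and 9 zeugopod cells, against 34 and 49 with *Pbrm1* alone and 34 and 54 with both. The share with both was 44.7% and 43.9%, near the products of the separate shares (42.4% and 42.9%). *Pbrm1* and its PBAF partner *Brd7* were both detected in 28 autopod and 42 zeugopod cells, and *Brd7* occurred without *Pbrm1* in 4 and 7. These counts follow the separate shares, with products of 37.7% and 33.4% against 36.8% and 34.1% observed.

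*Smarca4* was higher in cycling cells of both tissues. Cells were called cycling at 5 or more reads of at least 3 of *Mki67*, *Top2a*, *Ccnb1* and *Cdk1*, which gave 18 of 76 autopod cells and 23 zeugopod cells. A further 13 and 10 cells were 1 marker short, so the class is a range and not a cell type. *Smarca4* was detected in 15 of 18 cycling autopod cells (83.3%, interval 58.6% to 96.4%) and in 30 of the 58 others (51.7%, 38.2% to 65.1%). In the zeugopod it was detected in 22 of 23 (95.7%, 78.1% to 99.9%) and 55 of 100 (44.7% to 64.97%).

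Median *Smarca4* signal was 227 in cycling and 1.17 in other autopod cells, with highest cells at 3613 and 4522, and 91.1 against 2.50 in the zeugopod, with highest cells at 1518 and 2326. The ranges overlapped, since each class held cells at the floor of 0.156. The difference in mean log2(signal + 1) was 3.56 in the autopod (6.55 ± 3.80 against 2.99 ± 3.35, SD over cells) and 2.94 in the zeugopod (6.42 ± 2.75 against 3.48 ± 3.61). These lay above 97.9% and 97.1% of the genes tested, whose median was 1.01 and 0.80. Within runs the difference was 3.51 (NXT0072), 6.15 (NXT0143 autopod, 2 cycling cells), 2.93 (NXT0142) and 2.73 (NXT0143 zeugopod).

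Cycling cells had more genes detected, with a median of 4170 against 3402 in the autopod and 5053 against 3900 in the zeugopod. Among cells with 4000 or more genes the difference of *Smarca4* was 2.87 and 2.86, with all 10 cycling autopod cells and 20 of 21 cycling zeugopod cells positive, against 15 of 20 and 23 of 40 others. After thinning it was 3.38 and 3.08 on the log2(CPM + 1) scale, against medians of 0.49 and 0.54 over all genes. Detection by the number of markers in the autopod was 12 of 25, 10 of 20, 8 of 13, 6 of 9 and 9 of 9 cells with 0, 1, 2, 3 and 4 markers. In the zeugopod it was 36 of 67, 15 of 23, 4 of 10, 10 of 10 and 12 of 13.

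**Figure D5:**
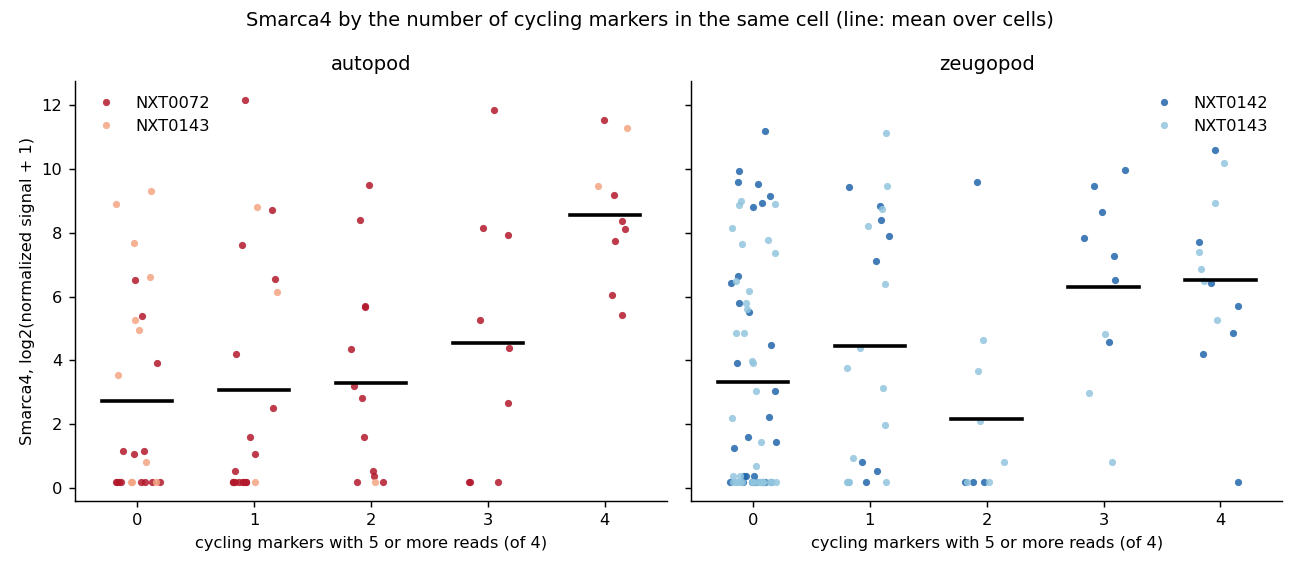
*Smarca4*, log2(normalized signal + 1) (vertical axis), by the number of the 4 cycling markers with 5 or more reads in the same cell (horizontal axis), by tissue and run. Points are cells and lines means. The mean is 2.74 with 0 markers, 4.54 with 3 and 8.56 with 4 in the autopod. In the zeugopod it is 3.33 with 0, 2.19 with 2 and 6.52 with 4 markers. Median genes detected in the same classes were 3363, 3709 and 5557 in the autopod and 3745, 4246.5 and 5206 in the zeugopod.

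The other members followed the cycling cells less far. Counting all 10 members, *Smarca4* included, 6 were higher by at least 1 in cycling autopod cells, against 50.6% of genes. In the zeugopod 8 were, again with *Smarca4* among them, against 41% of genes. The shares of genes lower by that much were 1.96% and 0.796%, with 0 members in either tissue. With CPM the count of higher members was 2 in the autopod, against 33.4% of genes, and 7 in the zeugopod, against 32%. The next after *Smarca4* was *Smarcb1* in both tissues (1.78 and 2.01), and the smallest were *Smarcc2* in the autopod (0.02) and *Brd7* in the zeugopod (0.88). The paralog *Smarca2* gave 1.24 and 1.44, and its difference was 0.73 and 0.65 among cells with 4000 or more genes.

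Cells were called chondrogenic at 5 or more reads of at least 3 of *Sox9*, *Col2a1*, *Acan*, *Col9a1* and *Matn1*. These were 35 autopod and 38 zeugopod cells, each set compared with the other cells of its tissue. The markers were not equally common in the tissues. *Sox9* was detected in 94.7% of all autopod and 64.2% of all zeugopod cells, *Col2a1* in 56.6% and 91.1% and *Col9a1* in 63.2% and 29.3%. Many of the other cells thus also carried markers of the list, and the class is a range and not a cell type. In the zeugopod *Pbrm1* (-1.87) and *Smarca2* (-1.19) were lower by at least 1, against 11.4% of genes. *Pbrm1* was detected in 27 of 38 chondrogenic cells (71.1%) and 76 of the 85 others (89.4%), and *Smarca2* in 19 of 38 and 62 of 85 (72.9%). In the autopod *Smarca4* (-1.45) and *Smarcc1* (-1.09) were lower, against 27.1% of genes, and *Smarcc2* was higher (1.03), against 2.55%. 0 zeugopod members were higher by that much, against 3.72% of genes. Within runs, *Pbrm1* gave -1.18 (NXT0142) and -2.60 (NXT0143) in the zeugopod and *Smarca2* gave -2.18 and -0.26. *Smarcc2* gave 0.34 (NXT0072) and 3.34 (NXT0143, 8 chondrogenic cells) in the autopod, and *Smarca4* gave -1.28 and -2.11. Chondrogenic cells had fewer genes detected, 3390 against 3890 in the autopod and 3870 against 4051 in the zeugopod.

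The study named *Smarcc1*, *Smarce1* and *Brd7* in connection with the number of *Hoxd* genes active per autopod cell, so that these genes are not independent evidence here. A *Hoxd* gene was called on where its signal reached both 5 and 5% of that of the strongest *Hoxd* gene in the same cell. In the 8 cells with *Hoxd10*, *Hoxd11*, *Hoxd12* and *Hoxd13* on, all 10 members were higher by at least 1 than in the 16 cells with *Hoxd13* alone, against 73.8% of all genes. With CPM 8 members were, against 49.2% of genes, and after thinning 7, against 49.8%. The largest differences were those of *Smarce1* (6.53), *Brd7* (5.66) and *Smarca4* (5.23). *Smarce1* was detected in 8 of 8 and 11 of 16 cells, with median signals of 617 and 1.73, *Brd7* in 6 of 8 and 4 of 16, with medians of 132 and 0.190, and *Smarcc1* in 8 of 8 and 11 of 16, with medians of 372 and 18.7. *Smarcd1* gave 1.62, but its sign turned after scaling to CPM (-0.01) and after thinning (-0.14).

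Depth and cycling moved with this contrast. The 8 cells had a median of 5564 genes detected and 5865750 reads, and the 16 cells 3140 genes and 1878970 reads, and all came from NXT0072. Cycling cells were 5 of the 8 but 5 of the 16, and all 4 cycling markers were detected in 4 of the 8 and 1 of the 16. The median difference was 3.98 over the members and 2.04 over all genes tested, and 2.88 and 0.99 after thinning. After thinning *Smarce1* (5.57) and *Brd7* (4.45) lay above 99.1% and 96.7% of genes. With intermediate combinations *Brd7* was detected in 8 of 13 cells (*Hoxd11* and *Hoxd13*), 4 of 9 (*Hoxd10* and *Hoxd13*), 3 of 7 (*Hoxd10*, *Hoxd11* and *Hoxd13*) and 1 of 5 cells (*Hoxd11*, *Hoxd12* and *Hoxd13*), without a steady order. *Smarce1* was detected in 10 of 13, 5 of 9, 5 of 7 and 5 of 5. The study named *Smarcc1* for the contrast of cells with *Hoxd11* and *Hoxd13* and cells with *Hoxd10* to *Hoxd13*. In these 2 classes *Smarcc1* was detected in 9 of 13 and 8 of 8 cells, with means of 2.67 and 8.37. Their median genes detected were 3455 and 5564.

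Of 18 other SWI/SNF subunits, 11 passed the filter on low values. In the autopod 0 of them were higher by at least 1 (6.06% of all genes) and 1 was lower (13.4%). That was *Dpf2*, a PHD-finger subunit of BAF (-1.02 over all cells, 0.41 within NXT0143). After it came *Brd9*, a subunit of the non-canonical form (-0.45), and the highest were *Arid1b* (0.81) and *Smarcd2* (0.75). By detection the commonest was *Arid1b*, the paralog of *Arid1a*, in 94.7% of autopod (interval 87.1% to 98.5%) and 91.9% of zeugopod cells (85.6% to 96.03%), followed in the autopod by *Arid2*, the ARID subunit of PBAF (59.2%, and 46.3% in the zeugopod), and in the zeugopod by *Brd9* (54.5%, and 42.1% in the autopod). *Arid1b* was thus found in more cells than *Arid1a* in both tissues. The rarest was *Actl6b*, a subunit of the neuronal complex, in 0 of 76 autopod cells (at 3 counts, up to 3.95%) and 1.63% of zeugopod cells. *Smarcd3*, the muscle-enriched paralog of *Smarcd1*, was found in 3.95% and 10.57%. *Dpf1*, also known from the neuronal complex and named here after its values were seen, was found in 14.5% and 34.96%. The list of subunits gave *Actl6b* and *Dpf1* as neuronal subunits that limb cells should lack, which did not hold for *Dpf1*.

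Other chromatin regulators gave values of the same size. Among the genes that passed the filter, the lowest and highest cohesin genes by difference over all cells were *Smc3* (-1.54), *Mau2* (-1.36), *Ctcf* (1.26) and *Rad21* (1.55). Those of the Polycomb genes were *Jarid2* (-1.54), *Rnf2* (-0.18), *Ezh2* (1.15) and *Phc2* (1.46), and those of the remodellers outside SWI/SNF were *Rbbp7* (-1.14), *Chd4* (-0.84), *Smarca5* (0.74) and *Hdac2* (0.83). Of these genes, *Smc3*, *Rad21*, *Jarid2*, *Rnf2*, *Phc2* and *Hdac2* had the opposite sign within NXT0143. Of 10 cohesin genes 2 were higher and 3 lower by at least 1, of 8 Polycomb genes 2 and 1, and of 19 other remodellers 0 and 1. Over all genes tested the shares were 6.06% higher and 13.4% lower. Over their autopod pairs the median rank correlation was 0.22 for cohesin, 0.09 for Polycomb and 0.17 for the other remodellers, beside 0.20 for the SWI/SNF members. Given genes detected these were -0.01, -0.01, 0.03 and 0.02.

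The genes whose values were most like the mean of the members over both tissues, by partial rank correlation given genes detected, were *Ubb* (0.40), *Ptp4a2* (0.35), *Sod1* (0.34), *RP24-503L4.2* (0.31) and *Cfl1* (0.30), over the cells of each tissue, against a median of 0.04 over all genes tested.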

How the data were processed

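Single forelimb cells at E12.5 were captured on a microfluidic chip, and their full-length cDNA was sequenced without molecular identifiers or strand. Per the submitters' processing notes and the study's methods, 75-base reads were mapped to mm10 (GRCm38) with Bowtie2, and the deposited counts are raw reads per gene and cell (23165 genes, 92 spike-ins, 225 cells). The deposited normalized signal was made by the authors with scran from spike-in size factors centred within each batch and then divided by gene length. It covers 10948 genes in 199 cells. From the values, each signal times its length is a whole number (100% of values within 1e-06) that is 1 for 0 reads, so it is not on a log scale. Depth ranged from 186271 to 9437450 reads per retained cell. The deposited spike-in counts did not follow the size factors of the same columns (rank correlation -0.0722) and were not used.

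Detection was set at 5 or more reads, and genes detected per cell counted genes with at least 1 read. Differences are means of log2(signal + 1) over the cells of a group, and the 4898 genes detected in 25% or more of a tissue's cells gave the background. Cells were not replicates, so no test was run. As alternatives, other pseudocounts, filters and read minimums, CPM, thinning to 500000 reads (4 cells too shallow in each tissue), single runs and partial correlations were computed. All 10 members are named. Of other lists the 2 highest and 2 lowest are named by the measure given, and of similar genes the 5 closest. Left out were 26 deposited cells without normalized values. No pair of libraries held identical counts (0 found). The members and lists were chosen with earlier results of these data known. Promoters came from RefSeq on GRCm38.p6 and gene positions from GENCODE. The computations used Python 3.11.15, numpy 2.4.6, scipy 1.17.1, pandas 2.3.3 and matplotlib 3.10.9. Calls with CPM and partial correlations were tested on simulated data without runs, which do not cover the normalized signal or differences between runs.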

Additional observations from a re-analysis of the deposited data

Results flagged for a closer look

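Some subunits differed between the tissues in opposite directions in the 2 available comparisons of runs, and the difference between the comparisons was not tested. *Smarca4* was higher in the autopod within NXT0143 (1.31 in mean log2(signal + 1)) and lower between NXT0072 autopod and NXT0142 zeugopod cells (-0.98). *Smarcc2* gave 1.42 and -0.81 in the same comparisons. *Smarce1* gave 0.15 and -3.47. The NXT0072 autopod cells had the lowest mean of the 4 groups of cells for each of these subunits, and also the fewest genes detected (median 3528); the part of genes detected in the differences was not tested.

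Of the 26 cells without normalized values, which entered no comparison, 6 had 5 or more reads of at least 1 member, with at most 3 members in a cell. Those 26 cells had a median of 339 genes detected.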

How the results depend on the processing

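Of 60 values of the members' tissue differences under 6 alternatives, 54 stayed on their side of a difference of 1 in size. *Smarce1*, below -1 over all cells, changed sign within NXT0143 alone (0.15). Smaller differences also changed sign: *Smarca4* (1.31), *Smarcc1* (0.93) and *Smarcc2* (1.42) within NXT0143, *Arid1a* between the other runs, with CPM and after thinning, and *Smarcc1* with a pseudocount of 10. Within NXT0143 alone 3 members were higher (18.4% of genes) and 0 lower (9.21%) by at least 1. The tissue difference of the median gene was -0.12 on the signal scale, -0.29 with CPM, -0.31 after thinning, -0.17 with a pseudocount of 0.1 and -0.03 with one of 10, and 1 member was higher under all of these scalings (5.41% of genes with CPM, 5.78% after thinning, 9.88% and 1.92% with the pseudocounts). Of lower members there were 3 on the signal scale (13.4% of genes), with CPM (19.8%), after thinning (20.4%) and with a pseudocount of 0.1 (19.3%). With a pseudocount of 10 there were 2 (5.29%). The background shares of higher and lower genes became 2.83% and 6.26% with no filter on low values and 10.8% and 22.95% with 5 reads required in 50% of cells. Of 140 shares of cells, 29 left the interval of the reported share. The rank correlation of members with genes detected was 0.44 in the 17 autopod cells of NXT0143. The median over pairs in the autopod was 0.0974 with CPM, 0.0812 after thinning, 0.0170 given genes detected and 0.0514 in NXT0143 alone, and in the zeugopod 0.0582, 0.0370 and 0.0424 for the first 3 of these. Against *Hoxd13* alone, *Smarcd1* changed sign with CPM (-0.0116) and after thinning (-0.14).

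The alternatives for cell classes were chosen after seeing the data. Each count is followed by the share of all genes. Chondrogenic autopod members higher by at least 1 numbered 0 in NXT0072 (2.61%), 2 in NXT0143 (15%) and 0 among cells with 4000 or more genes (12.4%), and those lower numbered 1 with CPM (20.3%), 1 after thinning (25%) and 4 in NXT0072 (30.8%). Chondrogenic zeugopod members lower numbered 4 in NXT0142 (27.4%). Cycling autopod members higher numbered 2 with CPM (33.4%), 2 after thinning (30.7%) and 4 among cells with 4000 or more genes (50.3%). By run, 7 were higher in NXT0072 (52.1%) and 7 in NXT0143 (52.3%), where 1 was lower (20%). Cycling zeugopod members higher numbered 4 in NXT0142 (39.6%) and 7 in NXT0143 (42.1%). They numbered 7 with CPM (32%), 7 after thinning (30.4%) and 6 among cells with 4000 or more genes (25.1%). The cause of these changes was not tested. No paired analysis was possible because the cells carry no number that pairs them across tissues and no result comes from a test. With 1 pooled sample per tissue, the spread between embryos is unknown. Run and tissue are shared only in NXT0143, whose 17 autopod cells limit every comparison within it.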
